A study of Mus musculus with 2 samples.

Results

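Mature oligodendrocytes, the myelin-forming glia of the central nervous system, were examined in 2 single-cell RNA libraries from mouse brain that carried a glioblastoma graft. A cell counted as a member when at least 4 of 8 oligodendrocyte genes (Mog, Mag, Ermn, Opalin, Cldn11, Mal, Hapln2 and Ninj2) had a UMI, the count of 1 tagged RNA molecule. At most 1 of 5 genes that mark other brain cells could be detected in it: P2ry12 (microglia), Cldn5 (endothelial cells), Aqp4 (astrocytes), Dcx (neuroblasts) and Tmem212 (ependymal cells). Only barcodes with at least 1000 UMIs, at least 500 detected genes and at most 10% mitochondrial UMIs were considered. The rule found 1644 members among 13466 kept cells, of which 1029 came from the control library and 615 from the conditional knockout (cKO) library.

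Both hosts carried CreER, a tamoxifen-activated Cre recombinase, on 1 allele of Cx3cr1, a gene of microglia and other myeloid cells, so recombination was directed to those cells and not to oligodendrocytes. The control host was Cx3cr1 CreER/+ Plxnb2 fl/+ and the cKO host Cx3cr1 CreER/+ Plxnb2fl/fl. Plxnb2 encodes Plexin-B2, a receptor for class 4 semaphorins. The control therefore had 1 floxed Plxnb2 allele, although its title calls it wild type, and the cKO had 2. Both received tamoxifen at 100 mg/kg, begun 3 days before KR158 cells, a mouse glioblastoma line, were injected into the brain and repeated on alternate days. Tissue from about 1 mm to either side of the injection site was taken at 8 weeks and dissociated with papain. The labels do not give the animals' age and sex or how many were pooled. Each genotype had 1 library, so no difference has a replicate check and none was tested, and effects of genotype, of the animal and of the preparation cannot be told apart. The intervals given are 95% intervals for counting error only.

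An oligodendrocyte wraps segments of many axons in myelin, a stack of compacted membrane that is rich in cholesterol and galactolipids and is held together by proteins such as MBP. The mature cell keeps the transcription factors SOX10 and MYRF active to maintain this programme, supplies axons with metabolites and stores iron. Oligodendrocytes can also raise interferon-response and antigen-presentation genes in inflamed tissue, and graded mature states have been described that differ in genes such as Ptgds, Opalin, Il33 and Klk6.

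Members were a well-separated group by the count of markers. Among cells with at most 1 excluded gene, 2604 control cells had none of the 8 markers, 91 had 3, 27 had 4 and 258 had all 8. In the cKO library 1732 cells had none, 45 had 3, 11 had 4 and 209 had all 8, so few cells lay near the threshold in either library. Control cells with exactly 3 markers held 148 CPM (UMIs summed over the cells and scaled to a total of 1000000) of Mbp, which encodes the basic protein that zips the cytoplasmic faces of myelin together and was not part of the rule. Control cells with exactly 4 markers held 1076 CPM of Mbp and those with all 8 held 5041 CPM. In the cKO library the same 3 groups held 94.7, 200.3 and 4994 CPM, so the few cKO cells with 4 markers were lower in Mbp than those with all 8. Sox10 was at 60.4 CPM in control and 6.68 CPM in cKO cells with 4 markers, against 389 and 375 CPM in cells with all 8.

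**Figure D1:**
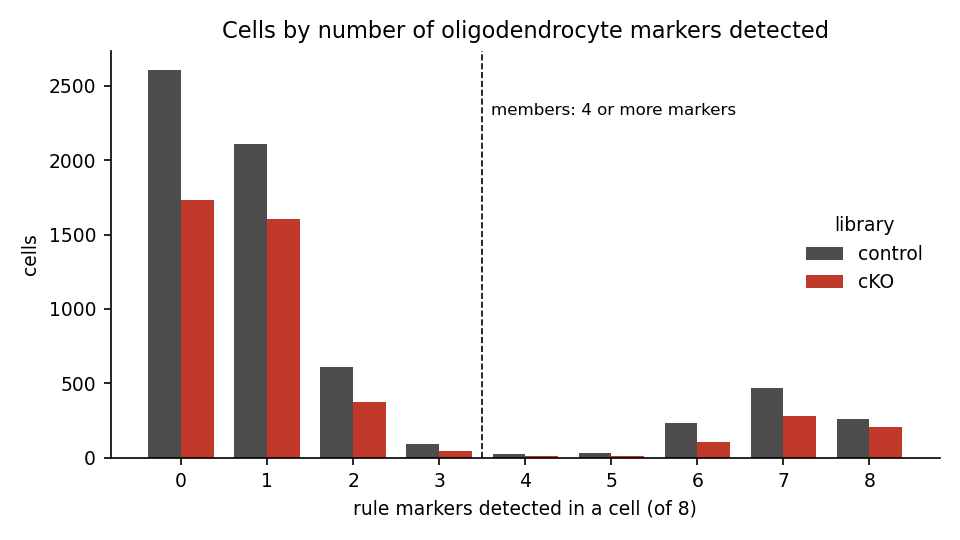
Number of kept cells (y axis) by how many of the 8 rule markers they had a UMI of (x axis), for cells with at most 1 of the 5 excluded genes. Grey bars are the control and red bars the cKO library; cells to the right of the dashed line are members, and both libraries have few cells with 3 to 5 markers (91, 27 and 35 in the control, 45, 11 and 10 in the cKO).

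The genes with the highest ratio of members to all other kept cells, given as a description because the markers chose the cells, were those of myelin and its lipids. In the control library members held 1021 CPM of Mog, a surface protein of the outermost myelin layer (chr17:37010743-37023398, minus strand, on mm10 as are all gene coordinates here), against 21.2 CPM in other cells. The cKO values were 1164 and 12.3 CPM. Beside 6 of the 8 markers (Opalin, Ermn, Mog, Hapln2, Ninj2 and Cldn11), the 15 highest ratios belonged to Ugt8a and Fa2h, enzymes of galactolipid synthesis, Tubb4a, a beta-tubulin, and Cyp2j12, Smco3, Tmem125, Tnni1, Pex5l and Spock3. Taking the lower of the 2 libraries, these ratios ran from 56.0 for Cyp2j12 to 37.0 for Tubb4a. Mal, a rule marker that encodes a raft protein of myelin, had a lower ratio of 18.7, since endothelial cells also held it at 619 CPM (control) and 756 CPM (cKO). Outside the rule, Mbp was at 4670.0 and 4587 CPM in control and cKO members and at 155 and 119 CPM in the other cells. Precursor cells were almost absent: 1 cell in each library met a rule of at least 4 of 8 precursor markers such as Pdgfra and Cspg4, and none of the 10 control and 3 cKO cells with 3 or more precursor markers was a member.

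A sizeable share of members also carried the genes of another cell type. In the control library 281 members (27.3%) and in the cKO library 137 (22.3%) had at least 4 of 8 markers of astrocytes, microglia or endothelial cells. Astrocyte markers were met by 195 control and 98 cKO members, microglial markers by 78 and 19, and endothelial markers by 29 and 30. These mixed-profile members had median depths of 8254 and 9523 UMIs, above the 6144.5 and 7505.5 UMIs of the others. Scrublet, a doublet caller, called 94 of the 281 control and 43 of the 137 cKO mixed-profile members, but 7 of 748 and 4 of 478 of the rest. The split was made after the data were seen. Results are therefore given for all members and for the 748 control and 478 cKO single-profile members; removing mixed profiles lowers genes of the other classes by construction.

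Kept cells numbered 8068 (control) and 5398 (cKO), and the matrices held 64756949 and 63785513 UMIs. Members made up 12.8% of control cells (12.03 to 13.5) and 11.4% of cKO cells (10.6 to 12.3), a difference of -1.36 percentage points that was -0.416 for single-profile members. Members had median depths of 6714 and 7829 UMIs and summed to 7747269 and 5479323 UMIs. Nuclear genes with rRNA-like reads, such as Lars2, held 3.02% of control and 1.41% of cKO member UMIs, and Lars2 was lower in the cKO library in oligodendrocytes, astrocytes, microglia and endothelial cells alike (log2 ratios between -1.16 and -0.98). Mbp was detected in 31.5% to 38.8% of the cells of the other 3 classes at 51.1 to 158 CPM; these are the background values in cells that should lack it. The libraries shared 8 barcodes among kept cells and 1 among members.

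Most genes of the mature oligodendrocyte were at similar levels in the libraries. A gene was called higher or lower in the cKO library when it differed by at least 1.5-fold with an interval that excluded equality, among genes with a mean of at least 20 CPM. A gene could reach that minimum through the library where it was high, so counts of called genes in a list are a description only. In all members 99 of 6096 measured genes were higher (1.62%) and 110 were lower (1.80%). In single-profile members 41 of 5802 were higher (0.707%) and 57 were lower (0.982%). Of the genes called in all members, 27 higher and 39 lower ones were called in single-profile members too. These are 27.3% and 35.5% of the longer lists and 65.9% and 68.4% of the shorter ones. Of the longer lists, 63 higher and 57 lower genes were under the minimum in single-profile members and could not be called. Among the 36 and 53 that were measured there, 27 and 39 were called again. The genes called higher in both included Ptgds, Tppp3, H2-D1, Ifi27l2a, Map7d2 and Ddc, and those called lower in both included Tubb4a, Erbb4, Hspa1a, Hspa1b and Dnajb1.

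**Figure D2:**
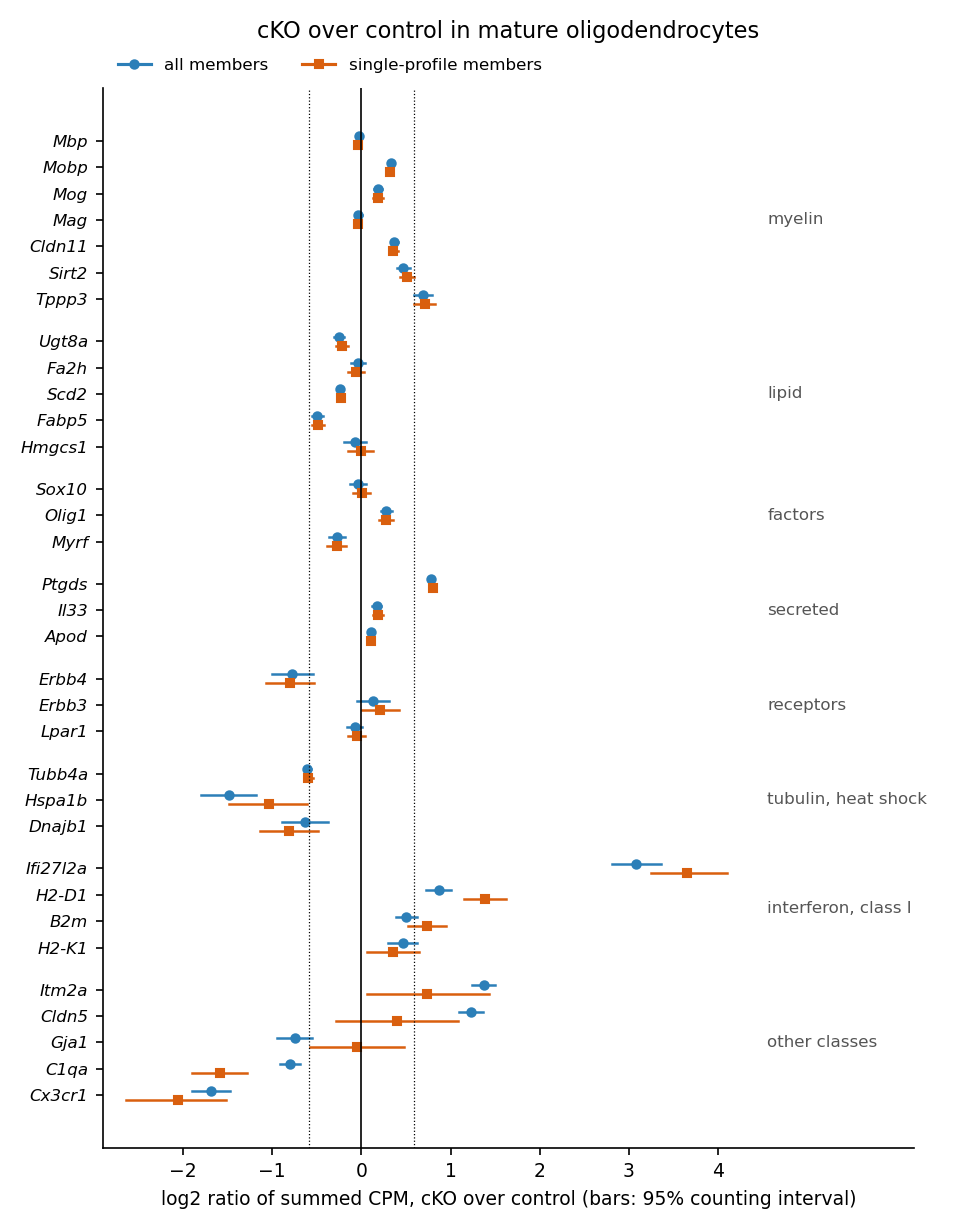
Log2 ratio of summed CPM, cKO over control (x axis), for genes grouped by role (y axis), with 95% counting intervals; blue circles are all members and orange squares single-profile members, and dotted lines mark 1.5-fold. Mbp and Mag lie near 0, Ptgds, Tppp3, Ifi27l2a and H2-D1 lie to the right, and genes of endothelial cells such as Cldn5 (1.23 in all members, 0.40 in single-profile members) move with the choice of members.

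Structural myelin genes hardly differed. Of 29 measured myelin genes outside the rule, 1 was higher and none lower, in all and in single-profile members. The median log2 ratio was 0.04 in both against 0.01 over all measured genes. Of all measured genes 1.62% were higher in all members and 0.707% in single-profile members. In single-profile members Mbp was at 5203 CPM (control) and 5088 CPM (cKO), a log2 ratio of -0.03 (-0.06 to -0.01). Cnp, an enzyme of the cytoplasmic channels of myelin, was at 3861 and 4289 CPM (0.15, 0.12 to 0.18), so both lay close to equality. Mobp, a further basic protein, was at 2191 and 2736 CPM, a log2 ratio of 0.32 (0.28 to 0.36) that missed the 1.5-fold limit.

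The 8 rule markers had no called member and a median log2 ratio of 0.18 in single-profile members. Because their detection chose the cells, and cells low in them were left out, the levels of these markers are a description only. Cldn11, the claudin of the radial component, stood highest among them at 1364 and 1749 CPM (0.36, 0.31 to 0.41). Mag, the adhesion protein next to the axon, was at 2122 and 2062 CPM, and Opalin, a membrane protein of mature cells, at 1283 and 1290.0 CPM, both within 0.04 of equality on the log2 scale. The 1 myelin gene called higher was Tppp3, a tubulin-binding protein (chr8:105467493-105471526, minus strand). It was at 207 CPM (control) and 339 CPM (cKO), a log2 ratio of 0.71 (0.59 to 0.83), and at 185 and 299 CPM in all members. It was detected in 60.0% of control and 79.1% of cKO single-profile members, and in 14.2% and 26.2% when each cell was thinned to 1000 UMIs. Sirt2, a deacetylase of myelin, was at 487 and 693 CPM (0.51), under the limit.

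The transcription factors of the lineage stood at like levels. None of 15 measured factors was called in either set, with medians of -0.02 in all and 0.00 in single-profile members. In single-profile members Sox10 was at 378 CPM in both libraries and Olig2 at 174 and 178 CPM. Olig1 was at 571 and 692 CPM (0.28, 0.20 to 0.36) and Myrf, the membrane-tethered factor that drives myelin genes, at 357 and 294 CPM (-0.28, -0.39 to -0.17). Olig1 and Myrf thus lay on opposite sides of equality, each within 1.5-fold.

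Lipid genes showed small differences with few calls. None of 18 measured genes of sterol synthesis was called, with medians of -0.10 in all and -0.01 in single-profile members; Hmgcs1, an early enzyme of the pathway, was at 190.5 and 189.7 CPM in the latter. Of the other myelin lipid genes, none of 29 was lower in single-profile members. In all members 2 of 30 were lower, against 1.80% of all measured genes. Those were Elovl5, a fatty acid elongase, and Fads2, a desaturase. Elovl5 was at 115 and 76.3 CPM in all members (-0.59) and at 116 and 80.0 CPM in single-profile members (-0.53). Fads2 was at 29.6 and 12.05 CPM in all members (-1.30) and under the measured minimum in single-profile members, at 11.2 and 6.43 CPM. Its call in all members is a description only, since it reached the minimum of 20 CPM through the control library. Over the 29 genes measured in single-profile members the median was -0.06. Fabp5, a fatty acid carrier, was at 1004 and 718 CPM in single-profile members (-0.48, -0.55 to -0.42), and Scd1, a desaturase, at 260.0 and 192 CPM (-0.44, -0.57 to -0.30). The galactolipid enzymes Ugt8a (923 and 794 CPM) and Fa2h (459.8 and 442 CPM) differed by -0.22 and -0.06.

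Among genes of glial coupling, iron and energy supply, few were called. In single-profile members none of 11 genes of gap junctions and ion transport and none of 11 of lactate and glucose handling was called, with medians of -0.14 and 0.04. Kcnj10, a potassium channel of glia, was at 333 and 296 CPM (-0.17, -0.28 to -0.06). Of 19 iron and antioxidant genes 2 were lower, against 0.982% of all measured genes. Slc11a2, an iron importer, was at 32.8 and 20.1 CPM (-0.71, -1.12 to -0.31). Mt2, a metallothionein, was at 75.1 and 43.7 CPM (-0.78, -1.05 to -0.52). Fth1, the ferritin heavy chain, was at 21235 and 25341 CPM (0.26), and Trf, the iron carrier transferrin, at 3732 and 3895 CPM (0.06).

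Ptgds, which encodes the enzyme that makes prostaglandin D2 and is secreted as a lipid carrier, was the most abundant gene called higher (chr2:25466709-25470046, minus strand). In single-profile members it was at 10918 CPM (control) and 19084 CPM (cKO), a log2 ratio of 0.81 (0.79 to 0.82). All members gave 9832 and 16833 CPM (0.78), and members with none of the 5 excluded genes gave 0.83. The difference lay in how much each cell held and not in how many cells had it: Ptgds was detected in 96.5% and 97.7% of single-profile members. With each cell thinned to 1000 UMIs the median was 9 UMIs (quartiles 3 and 15) in the control and 18 UMIs (quartiles 7.25 and 28) in the cKO library. The distributions overlapped widely, and 9.63% of control and 8.37% of cKO cells were at 0 after thinning. Without the 2 highest cells of each library the levels were 10715 and 18804 CPM, so no pair of cells carried the difference.

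**Figure D3:**
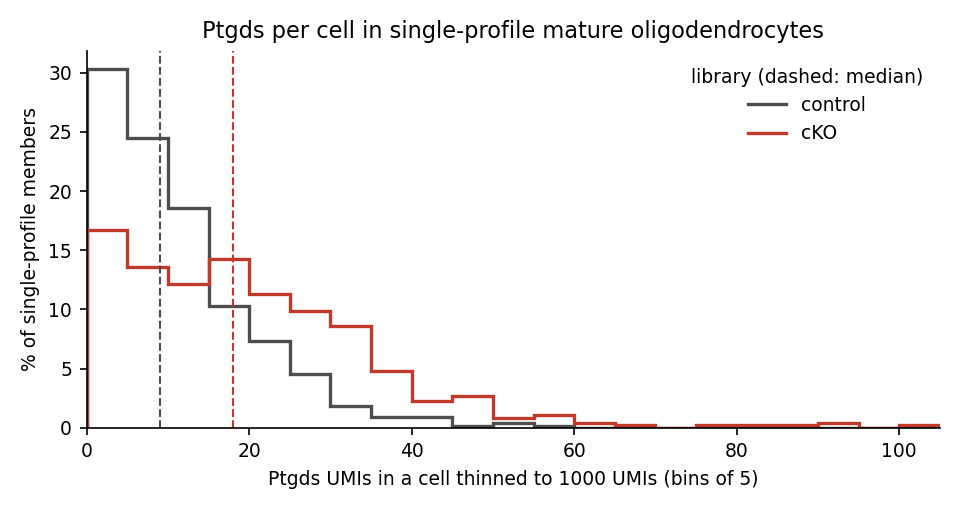
Share of single-profile members (y axis, percent) by Ptgds UMIs in a cell thinned to 1000 UMIs (x axis, bins of 5), control in grey and cKO in red, with dashed lines at the medians of 9 and 18 UMIs. The cKO distribution reaches further to the right, while the 2 overlap over most of their range.

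The other genes of secreted and mature-state products did not follow Ptgds. Il33, an alarmin kept in the nucleus of these cells, was at 952 and 1084 CPM in single-profile members (0.19, 0.13 to 0.25). Apod, a lipid-binding lipocalin, was at 3204 and 3455 CPM (0.11, 0.08 to 0.14). Pdgfa, a growth factor for precursors, was at 157 and 198 CPM (0.33, 0.19 to 0.48). Of 8 measured ligands 1, Ptgds, was called. Of 10 measured genes of mature subtypes 5 and 6 (a published set of late states that contains Ptgds) again only Ptgds was, with a median of 0.03. Over all genes measured in single-profile members 0.707% were higher.

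Among receptors for trophic and survival signals, 2 of 18 measured in single-profile members were lower and none was higher. Over all genes measured in those members 0.982% were lower and 0.707% higher. Erbb4, a neuregulin receptor (chr1:68032186-69108059, minus strand), was at 73.7 and 42.5 CPM (-0.80, -1.07 to -0.53), and at 67.6 and 39.6 CPM in all members (-0.77). Its relative Erbb3, the main neuregulin receptor of the lineage, was at 84.5 and 98.0 CPM (0.21, 0.01 to 0.42). S1pr1, a sphingosine-1-phosphate receptor that endothelial cells and astrocytes also express, was at 29.0 and 17.8 CPM (-0.71), but at 149 and 113 CPM in all members, where it was not called (-0.40). In single-profile members S1pr1 reached the minimum of 20 CPM through the control library, so its call there is a description only. Lpar1, a lysophosphatidic acid receptor of oligodendrocytes, was at 430.5 and 415 CPM (-0.05).

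Tgfbr2, the type II receptor for TGF-beta, was rare in control members and less so in cKO members. In all members it was at 20.1 and 40.9 CPM and called higher (1.02, 0.72 to 1.33). In single-profile members it lay under the measured minimum, at 4.20 CPM in control cells (21 UMIs in 19 cells) and 25.5 CPM in cKO cells (99 UMIs in 84 cells), with a log2 ratio of 2.60 (1.91 to 3.36). After thinning it was found in 0% of control and 2.51% of cKO single-profile members. Such a count of 0 in 748 cells, which covers cells with a UMI, allows a share of up to 0.401%. The other classes held Tgfbr2 at like levels in both libraries in microglia (267 and 252 CPM) and endothelial cells (246 and 272 CPM), and at 35.2 and 19.8 CPM in astrocytes.

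Plxnb2 itself was scarce in these cells. All members held it at 15.5 CPM (control) and 6.21 CPM (cKO), and single-profile members at 6.99 CPM (35 UMIs) and 4.63 CPM (18 UMIs), under the measured minimum (-0.59, -1.50 to 0.26). Microglia, in which Cre was directed to act, held 202 and 38.2 CPM (-2.41). The labels do not name the floxed exons, so whether reads from the 3′ end report the deletion is unknown (Plxnb2, chr15:89155549-89180788, minus strand). Plxnb3, the B-class plexin that oligodendrocytes make, was at 79.1 and 57.4 CPM in single-profile members (-0.46, -0.71 to -0.22). Sema4d, a class 4 semaphorin of oligodendrocytes and a ligand of B-class plexins, was at 247 and 251 CPM (0.03, -0.09 to 0.15). None of 12 measured plexins, semaphorins and their effectors was called in single-profile members, with a median of -0.17; Sema6a (-0.39) and Sema6d (-0.48), transmembrane semaphorins of myelinating cells, were among those under equality.

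Cytoskeletal and chaperone genes included several lower calls. Tubb4a, a beta-tubulin of myelinating oligodendrocytes (chr17:57080066-57087782, minus strand), was at 2156 and 1428 CPM in single-profile members (-0.59, -0.64 to -0.55) and at 1953 and 1284 CPM in all members (-0.61). In members with none of the 5 excluded genes its ratio of -0.56 missed the 1.5-fold limit. It was detected in 85.8% of control and 70.9% of cKO single-profile members after thinning. Other tubulins lay on the same side: Tuba1b was at 181 and 116 CPM (-0.64, -0.81 to -0.48) and Tuba1a at 1077 and 825 CPM (-0.39, not called), whereas Actb, a cytoplasmic actin, was at 3492 and 4640.0 CPM (0.41, not called). Marcks, an actin-binding substrate of protein kinase C, was lower in single-profile members at 40.8 and 14.2 CPM (-1.53) and not called in all members (-0.42). Its call is a description only, since Marcks reached the minimum of 20 CPM through the control library. The list of 31 measured cytoskeletal genes had 3 lower, none higher and a median of -0.01. Over all genes measured in single-profile members 0.982% were lower.

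Of 14 measured heat shock genes 3 were lower in single-profile members, the inducible ones Hspa1a, Hspa1b and Dnajb1. Over all genes measured there 0.982% were lower. Hspa1b, an HSP70, was at 32.8 and 16.0 CPM (-1.04, -1.48 to -0.61) and Dnajb1, its cochaperone, at 53.2 and 30.4 CPM (-0.81, -1.13 to -0.49). Hspa1b reached the minimum of 20 CPM through the control library, so the count of lower genes is a description only. The constitutive Hspa8 was at 1048 and 1109.6 CPM (0.08), and the median of the list was -0.06. None of 9 immediate early genes was called in single-profile members. In all members 4 of 20 were higher, against 1.62% of all measured genes. Those in all members included Klf2 and Klf4, factors that endothelial cells express strongly. None of 16 measured genes of the endoplasmic reticulum and integrated stress responses was called. Cdkn1a, the cell cycle inhibitor p21, was at 14.8 and 25.2 CPM in single-profile members (0.77, 0.32 to 1.23). Its call as higher there is a description only, since it reached the minimum of 20 CPM through the cKO library. In all members it was at 29.4 and 64.4 CPM (1.13), and in members with none of the excluded genes it was not called (0.48).

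The interferon-response genes Ifi27l2a and Bst2 were higher in the cKO library. Of 54 annotated genes on the list, most were under the measured minimum. In all members 6 of 8 measured genes were higher and none lower, where 1.62% of all measured genes were higher. In single-profile members 2 of 4 were higher, against 0.707% of all measured genes. These counts are a description only, since a gene that reached the minimum through the cKO library alone, as Ifi27l2a and Bst2 did in all members, had to differ. Ifi27l2a, an interferon-inducible gene (chr12:103442167-103443680, minus strand), was at 10.4 and 131 CPM in single-profile members (3.66, 3.24 to 4.10), and at 16.9 and 143 CPM in all members (3.08). Bst2, a restriction factor known as tetherin, was at 17.6 and 44.3 CPM in all members (1.34) and at 5.60 and 18.0 CPM, under the minimum, in single-profile members (1.69, 1.04 to 2.37). Ifi27 (142 and 210.2 CPM) and Xaf1 (116 and 141 CPM) were measured and not called.

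The genes of antigen presentation by class I molecules split. H2-D1, a class I heavy chain, was at 43.2 and 113 CPM in single-profile members (1.38, 1.15 to 1.63), at 94.0 and 171 CPM in all members (0.87), and called in both. B2m, the light chain shared by class I molecules, was at 64.2 and 107 CPM in single-profile members (0.74, 0.52 to 0.95), but was not called in all members (0.51) or in members with none of the excluded genes (0.30). H2-K1, a further heavy chain, was at 40.0 and 51.2 CPM (0.36) and not called. In all, 2 of 7 measured genes of the list were higher in single-profile members, with a median of 0.14. Over all genes measured there 0.707% were higher. H2-D1 belongs to a family of closely similar genes, so reads assigned to it and to H2-K1 are uncertain.

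The 250 bases before the start of B2m, Bst2 and H2-D1 are shown because these 3 genes are described here beside Ifi27l2a. Sequences are from RefSeq on GRCm38.p6, 5′ to 3′ in the direction of the gene, and lie at chr2:122147437-122147686 (B2m, plus strand), chr8:71537473-71537722 (Bst2, minus strand) and chr17:35262844-35263093 (H2-D1, plus strand). Capitals mark a match: GAAA, any 2 bases and GAAA again, the core of an interferon-stimulated response element, searched on both strands (TTTC, any 2 bases and TTTC on the other).
B2m: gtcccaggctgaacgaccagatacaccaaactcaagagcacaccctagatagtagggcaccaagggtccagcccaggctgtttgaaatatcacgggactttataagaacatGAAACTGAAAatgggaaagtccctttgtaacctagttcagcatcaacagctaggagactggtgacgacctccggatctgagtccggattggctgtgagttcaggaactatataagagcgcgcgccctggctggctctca
Bst2: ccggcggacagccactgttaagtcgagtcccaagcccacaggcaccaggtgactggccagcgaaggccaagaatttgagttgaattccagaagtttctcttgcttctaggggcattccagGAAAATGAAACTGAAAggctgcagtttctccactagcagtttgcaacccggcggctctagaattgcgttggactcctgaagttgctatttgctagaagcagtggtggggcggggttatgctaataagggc
H2-D1: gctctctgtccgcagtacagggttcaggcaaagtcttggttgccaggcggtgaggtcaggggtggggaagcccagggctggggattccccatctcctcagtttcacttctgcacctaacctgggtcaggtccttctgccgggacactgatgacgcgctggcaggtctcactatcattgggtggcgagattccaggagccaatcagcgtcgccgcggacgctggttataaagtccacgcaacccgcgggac
B2m held 1 match, 139 bases before the start. Bst2 held 2 matches that overlap, 130 and 124 bases before the start, and H2-D1 held no exact match in the window. Only exact matches were searched, so forms of the element that depart from the pattern are not covered. Of 32851 promoters in the same table, 978 (2.98%) held a match in a window of that length. A match describes the letters alone.

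Ifi27l2a and Bst2 were higher in the other cKO classes too. Ifi27l2a was at 112 and 690.1 CPM in microglia (2.62), at 26.1 and 123 CPM in endothelial cells (2.23) and at 16.6 and 50.8 CPM in astrocytes (1.62). Bst2 had log2 ratios of 1.22 in microglia, 0.72 in endothelial cells and 2.05 in astrocytes. H2-D1 differed by 0.83 in microglia, 0.50 in endothelial cells and 0.81 in astrocytes. By the same call, 19 of 22 measured interferon genes were higher in astrocytes, 30 of 38 in microglia and 30 of 46 in endothelial cells. Of all measured genes 0.928%, 3.41% and 1.64% were higher in these classes. The counts are again a description only, since a gene could reach the minimum through the cKO library alone, as Ifi27l2a did in astrocytes. Fewer class I genes were called: 2 of 10 were higher in astrocytes (median 0.24), 9 of 21 in microglia (0.55) and 2 of 20 in endothelial cells (0.38). The level of H2-D1 in single-profile members (43.2 and 113 CPM) was well under that in microglia (659 and 1169 CPM), and the part of free RNA in it was not tested.

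**Figure D4:**
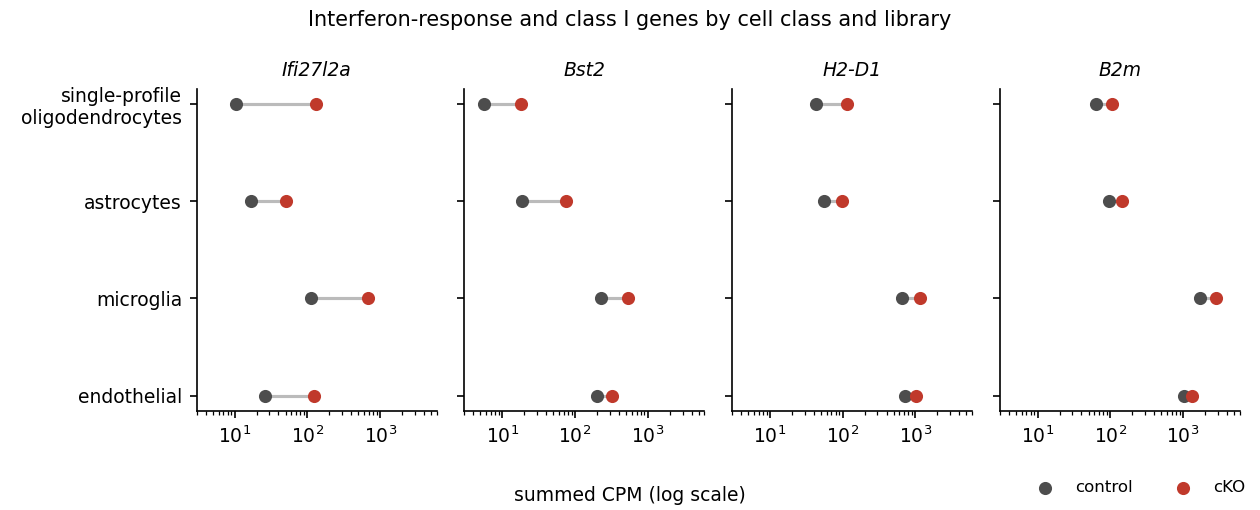
Summed CPM on a log axis (x) of 4 interferon-response and class I genes in 4 cell classes (y axis), grey for the control and red for the cKO library, with a line joining the libraries. In every class and gene shown the cKO point lies to the right; in oligodendrocytes Ifi27l2a spans 10.4 to 131 CPM.

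In oligodendrocytes the Ifi27l2a signal came from few cells. It was detected in 21 of 748 control and 45 of 478 cKO single-profile members, and the 10 highest cells held 83.9% of its cKO UMIs. Without the 2 highest cells of each library the levels were 5.63 and 96.7 CPM. The 20 cKO single-profile members with at least 2 Ifi27l2a UMIs (4.18%, 2.57 to 6.39) were higher in other interferon and class I genes than the other 458: Bst2 was at 235 against 4.64 CPM, B2m at 753 against 66.9 CPM and H2-D1 at 448 against 92.1 CPM. Complement C4b was at 572 against 70.8 CPM and Ifit1, an interferon-induced antiviral gene, at 102 against 1.09 CPM. Mbp was at 5038 against 5091 CPM. Of the microglial genes, C1qa was at 26.6 against 29.5 CPM, C1qb at 26.6 against 22.1 CPM and Ctss at 39.9 against 17.5 CPM (1.19, -0.003 to 2.20); these rest on 6, 6 and 9 UMIs in the 20 cells, and their part in the result was not tested. In the control library 6 cells passed the same limit, and those held C1qa at 1319 against 71.5 CPM. They were also higher in Bst2 (152 against 3.65 CPM), B2m (273 against 61.4 CPM) and H2-D1 (182 against 41.3 CPM), from 10, 18 and 12 UMIs. C4b was close in these control cells, at 91.0 against 74.1 CPM, and Ifit1 had 0 UMIs in them.

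Outside those cells H2-D1 still differed between libraries, while H2-K1 was at like levels. In single-profile members with fewer than 2 Ifi27l2a UMIs, H2-D1 was at 41.3 CPM (control) and 92.1 CPM (cKO), and H2-K1 at 39.1 and 39.9 CPM. B2m, at 61.4 and 66.9 CPM, and Bst2, at 3.65 and 4.64 CPM, were close. H2-D1 was detected in 19.7% of control and 37.0% of cKO single-profile members, and in 3.61% and 8.79% after thinning.

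A distinct state was seen in both libraries among cells with at least 2 UMIs of Klk6, a secreted serine protease of oligodendrocytes (chr7:43824499-43832030, plus strand). It held 29 of 748 control (3.88%, 2.61 to 5.52) and 24 of 478 cKO single-profile members (5.02%, 3.24 to 7.38), with intervals that overlap. In the control library these cells held S100b, a calcium-binding protein, at 2283 CPM against 135 CPM in the others, and in the cKO library at 2079 against 124 CPM. Hopx, a homeodomain-only protein, was at 444 against 22.02 CPM and at 423 against 25.6 CPM. Enpp6, a choline phosphodiesterase known from newly formed cells, was at 362 against 59.1 CPM and at 437 against 68.7 CPM. Apod was at 8561 against 2884 CPM and at 8358 against 3062 CPM.

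The same cells were lower in genes that mark the bulk of members. Ptgds was at 1079.5 against 11505 CPM in the control (-3.41) and at 3088 against 20367 CPM in the cKO library (-2.72). Opalin was at 273 against 1343 CPM and at 135 against 1383 CPM, and Il33 at 291 against 992 CPM and at 246 against 1152 CPM. Myelin genes differed in both directions. Mbp differed by 0.15 (control) and 0.03 (cKO) and Mag by 0.17 and 0.19 on the log2 scale, while Mal was lower in the Klk6 cells (-0.91 and -1.04) and Tppp3 was higher (1.58 and 1.23). Hapln2 was at 511 against 223 CPM in the control and at 662 against 255 CPM in the cKO library. Their median depths were 8872 and 11914.5 UMIs, against 6048 and 7392.5 in the others, and the part of depth in reaching 2 Klk6 UMIs was not tested. The summed Ptgds level was higher in the cKO library in both kinds of cell. In the Klk6 cells it rests on 304 UMIs (control) and 891 UMIs (cKO), and Ptgds was detected in 69.0% and 62.5% of them. Whether a few cells carried that difference was not tested.

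**Figure D5:**
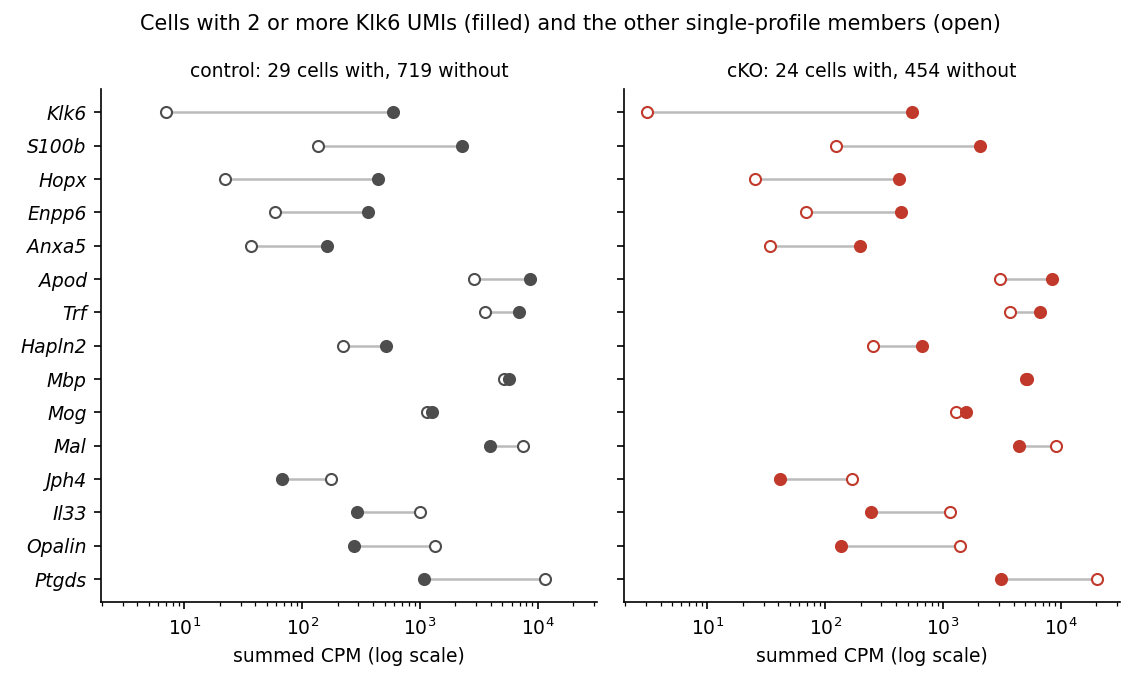
Summed CPM on a log axis (x) of 15 genes (y axis) in single-profile members with at least 2 Klk6 UMIs (filled) and in the others (open), control in the left and cKO in the right panel. S100b, Hopx, Enpp6 and Apod are higher and Opalin, Il33 and Ptgds lower in the Klk6 cells of both libraries, while Mbp and Mog nearly coincide.

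Genes of other cell types made up many of the calls and are given for that reason. Over all measured genes 1.62% were higher and 1.80% lower in all members. In single-profile members these shares were 0.707% and 0.982%. Endothelial genes were higher in all cKO members, 8 of 11 measured with a median of 0.91, and in single-profile members 1 was measured and none called. Their summed level was 1437 and 2531 CPM in all members and 318 and 321 CPM in single-profile members. Itm2a, Cldn5, Pglyrp1 and Edn1 were thus among the highest ratios in all members and under the minimum in single-profile members. Microglial genes were lower, 11 of 14 in all members (median -0.72) and 6 of 6 in single-profile members (median -1.58), with summed levels of 1814 and 1045 CPM and of 563 and 188 CPM. These counts are a description only, since a gene could reach the minimum through the control library alone, as C1qc and Ctss did in single-profile members. C1qa was at 87.9 and 29.3 CPM in single-profile members and was lower also in astrocytes (-0.97) and endothelial cells (-0.98), while microglia themselves held 8159 and 9080 CPM. Astrocyte genes were lower in 5 of 11 cases in all members, and in single-profile members 1 of 7 was higher (Htra1) and 1 lower (Clu).

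Some of the most extreme ratios came from RNA that was spread over all classes or from very few cells. Ttr, a transthyretin made by the choroid plexus, was at 2229.9 CPM in control single-profile members and detected in 98.7% of them, with 3 UMIs in the cKO (log2 ratio -11.50, -13.77 to -9.95), and control astrocytes, microglia and endothelial cells had it in 98.5% to 98.8% of cells. Hba-a1, an alpha-globin, was at 34.0 and 373 CPM, but it was detected in fewer cKO than control single-profile members (11.5% against 20.2%). Acta2 and Tagln, contractile genes of smooth muscle, were at 10.8 and 66.4 CPM and at 6.395 and 54.6 CPM. For these, 2 cells held 91.5% and 96.2% of the cKO UMIs, and without the 2 highest cells of each library the levels were 10.0 and 5.70 CPM for Acta2 and 5.42 and 2.07 CPM for Tagln.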

How the data were processed

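Raw UMI counts for each gene in each barcode were deposited by the authors. Cell Ranger 7.1.0 and build mm10 were used per the submitters' processing notes, on 10x 3′ libraries per the labels' protocols. The gene annotation and the treatment of intronic reads were not given in the sources. The control matrix held 10942 barcodes, each with at least 500 UMIs, and was therefore already filtered; the cKO matrix held 2377349 barcodes and was not. The same filters were set on both, and every kept cell reached 1000 UMIs.

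UMI counts were summed over members per library and scaled to CPM. Log2 ratios are cKO over control with exact conditional (Clopper-Pearson) 95% intervals; shares carry exact Clopper-Pearson intervals. A gene was called from 1.5-fold on where the interval left out equality, at a mean of at least 20 CPM. With 1 library per genotype no p-value was computed. Intervals cover counting error only. Astrocytes, microglia and endothelial cells were taken as cells with at least 4 of 8 markers each, leaving out cells that met more than 1 class rule. For shares of cells with a UMI, cells were thinned to 1000 UMIs with a fixed seed. Doublets were kept in the main values; Scrublet (scanpy 1.11.5, expected share 6%, per library) was an alternative.

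The genes named are the rule and excluded markers, Plxnb2, Plxnb3 and Cdkn1a, the 10 highest and 10 lowest ratios at 50 CPM and 30 UMIs or more, up to 4 members of each of 24 lists and those described for their role, and the 15 highest ratios of members to other cells. That ranking skipped genes of mitochondria, ribosomal proteins, immunoglobulins and haemoglobins, Gm and Rik genes and sex-linked marker genes. Tgfbr2, Hba-a1, Tagln, Map7d2 and Ddc, the single-profile split and the removal of the 2 highest cells were chosen after values were seen. A few genes are not reported here. The members and lists were chosen with earlier results of these data known. Coordinates are from GENCODE vM21, which held 99.6% of the 32285 gene identifiers; promoters are from RefSeq on GRCm38.p6, where 3 of 3 genes sought for display were found. The ratio step was tested on simulated counts. Alternatives were other UMI, mitochondrial, marker and low-value limits, scalings, thinning, per-cell weighting and doublet removal. Python 3.11.15, numpy 2.4.6, scipy 1.17.1, pandas 2.3.3 and matplotlib 3.10.9 were used.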

Additional observations from a re-analysis of the deposited data

Results flagged for a closer look

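Ptgds differed in opposite directions between cell classes. Its log2 ratio was 0.81 in single-profile oligodendrocytes, -1.52 in microglia (216 and 75.3 CPM) and -3.45 in endothelial cells (379 and 34.7 CPM). In astrocytes it was at 228 and 214 CPM. These differences between classes were not tested. Ptgds was detected in 36.7% of control and 28.7% of cKO endothelial cells and in 35.9% and 27.0% of microglia.

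Tppp3 also went in opposite directions, with a log2 ratio of 0.71 in single-profile oligodendrocytes and -0.77 in astrocytes (209 and 122 CPM). That difference was not tested. Tppp3 was detected in 14.5% of control and 12.5% of cKO astrocytes, and it is also made by ciliated cells.

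Barcodes of the cKO matrix with 1 to 100 UMIs, which hold no cell by the filters and enter no comparison, contained oligodendrocyte RNA. In these 1448877 barcodes Mbp was at 973 CPM of 3917906 UMIs and Ptgds at 2094 CPM. In kept cKO cells other than members the levels were 119 and 293 CPM. The control matrix holds no such barcodes, so the level of oligodendrocyte RNA outside cells was not compared between the libraries.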

How the results depend on the processing

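The share of members differed by -1.36 percentage points (-0.234 with none of the 5 excluded genes, -0.416 in single-profile members). The 99 higher genes became 158 at a mitochondrial limit of 5%, 149 with at least 3 markers, 55 with at least 5 markers, 47 with none of the excluded genes, 180 after thinning, 39 at 50 CPM or more, 545 with no filter on low values and 41 in single-profile members. The 110 lower genes became 166 after thinning, 41 at 50 CPM, 843 with no filter and 57 in single-profile members. The myelin structure median of 0.039 was -0.027 at a mitochondrial limit of 5%. The sterol median of -0.10 was 0.011 with none of the excluded genes, a change of sign, -0.013 after thinning and -0.0085 in single-profile members. The class I median of 0.36 was 0.010 with none of the excluded genes. The immediate early median of 0.29 was 0.046 with none of the excluded genes, 0.13 with per-cell CPM and 0.19 in single-profile members. Among named genes, Ly6a went from 1.33 to -0.29 with none of the excluded genes, Edn1 from 1.32 to -0.65 with none of the excluded genes and -0.81 in single-profile members, and C4b from 0.26 to -0.48 after thinning. Fewer genes are tested at 50 CPM and more with no filter; otherwise the cause was not tested. Over the alternatives, 168 values of summary results stayed within their error or within 1.5 times of the main count, 21 moved and 1 changed sign; for single genes these counts were 405, 176 and 4. Ptgds ranged from 0.67 to 0.83, Tppp3 from 0.64 to 1.00, Tubb4a from -0.66 to -0.56, H2-D1 from 0.78 to 1.38 and Ifi27l2a from 3.03 to 3.71 over 14 settings each. Median-of-ratios scaling shifted all genes by 0.0156 on the log2 scale. No paired analysis was possible because each genotype had 1 library, and leaving out a library leaves no comparison. Depth limits Bst2, which rests on 28 and 70 UMIs in single-profile members.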

Other observations

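Single-profile members with at least 2 UMIs of Enpp6 numbered 82 in the control (11.0%, 8.81 to 13.4) and 78 in the cKO library (16.3%, 13.1 to 19.9). They overlap with the Klk6 cells: Klk6 had a UMI in 36.6% and 33.3% of them, and Enpp6 in 89.7% and 95.8% of the Klk6 cells, so the profiles of both kinds of cell are not independent. S100b was at 1026 against 122 CPM in the control and 923 against 107 CPM in the cKO library, and Ptgds at 3087 against 12286 CPM and at 5376 against 22491 CPM. Tppp3 was higher in them in both libraries, at 356 against 181 CPM and at 575 against 280 CPM. Enpp6 had a UMI in 4.81% and 6.07% of single-profile members after thinning, and the median depths of the cells with 2 or more were 8633.5 and 9162.5 UMIs, above the 5961.5 and 7305.5 UMIs of the others.

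Sgk1, a kinase induced by glucocorticoids and salt, was at 1105 and 1517 CPM in single-profile members (0.46, 0.40 to 0.51) and under the 1.5-fold limit. Map7d2, a microtubule-associated protein, was at 40.0 and 68.2 CPM (0.77, 0.50 to 1.04), and Ddc, aromatic amino acid decarboxylase, at 41.6 and 69.2 CPM (0.74, 0.47 to 1.00). Chchd10, a mitochondrial protein, was at 55.4 and 12.6 CPM (-2.13), and it was also lower in microglia (-3.13) and endothelial cells (-3.66).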
